A study of Homo sapiens with 102 samples.

Results

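The levels of 9 genes of red blood cell formation were followed in drug-treated K562 cells. They were the transcription factors GATA1, KLF1 and NFE2, the heme synthesis enzymes ALAD, UROD, CPOX and FECH, the reductase BLVRB and the membrane protein gene GYPC. The genes were chosen by symbol, through their Ensembl identifiers, and all 9 were found among the 24965 genes of the count table.

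K562 is a long-established cell line from chronic myeloid leukaemia, with the BCR-ABL fusion gene and features of erythroid precursors. Combi-Seq encloses single cells in picolitre droplets with a pair of drugs, each marked by a barcode fragment, and reads the pooled transcriptome of each pair after 12 h of incubation. Each screen held 16 ordered pairs of DMSO as the vehicle, Imatinib, which blocks the BCR-ABL kinase, Trametinib, which blocks the MEK kinases, and YM115, each pair in 3 runs. The dT screen and the Bio screen, in which the barcodes were swapped, thus had 48 in-screen libraries each, and 3 separate DMSO libraries were made beside each screen, so that 102 libraries were read in all. The labels spell the compound YM115, whereas the study writes YM155, a suppressor of survivin expression. Every library came from this line, no dose was given in the labels, and which drug of a pair came from which injection source was not stated, so the terms first-listed and second-listed are used for the drugs of a pair. A run is a replicate of the same cell line, so p-values do not cover the spread between donors. In the drug tests they rest on the spread between libraries, with run taken out as a block. Libraries of different ordered pairs were pooled there, so that spread also holds differences between pairs.

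Heme is built from glycine and succinyl-CoA in a chain of enzymes that begins and ends in the mitochondrion. ALAS1 or ALAS2 makes aminolevulinate, ALAD joins these units to porphobilinogen, UROS closes the ring, UROD and CPOX trim its side chains, PPOX oxidises it, and FECH inserts the iron. In erythroid cells GATA1 switches on much of this pathway, KLF1 activates adult globin and membrane genes, and NFE2 pairs with a small MAF protein at the globin locus control region. BLVRB reduces flavins and biliverdin with NADPH, and GYPC encodes a glycophorin that helps to anchor the membrane skeleton of the red cell.

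On GRCh38, with the gene spans of GENCODE release 29, GATA1 lay on chromosome X from 48786554 to 48794311. KLF1 and BLVRB both lay on chromosome 19, from 12884422 to 12887199 and from 40447765 to 40465840. NFE2 was on chromosome 12 from 54292111 to 54301121, and GYPC on chromosome 2 from 126655933 to 126696670. Of the heme enzymes, ALAD was on chromosome 9 from 113386317 to 113401333, UROD on chromosome 1 from 45012147 to 45015575, CPOX on chromosome 3 from 98579446 to 98593723 and FECH on chromosome 18 from 57548283 to 57586772. All 9 were protein coding and counts refer to the whole gene. Annotated genes overlapped NFE2, CPOX, BLVRB and GYPC, but the one that was also in the count table, a pseudogene within GYPC, had 1 count in all in-screen libraries together.

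In-screen libraries held 127042 to 759756 counts in dT and 17882 to 780143 in Bio. All 48 dT libraries and 44 of the 48 Bio libraries reached 1000 detected genes with no more than 15% mitochondrial counts, and these entered the tests of drugs, position and screen. The 4 left out were the 3 Bio libraries of Imatinib_Imatinib and 1 of DMSO_Trametinib. The separate DMSO libraries were shallower in Bio (35742 to 89347 counts) than in dT (256671 to 458945). They detected 5501 to 10361 genes, against 438 to 5110 in any in-screen library, and 2 of 3 in each screen were over 15% mitochondrial. Whether fewer cells or less RNA per cell lay behind a low count cannot be told apart in these pooled libraries.

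The cell line was checked against its markers before the members were described. The gamma globin gene HBG2 was counted in 48 dT and 46 Bio libraries and the zeta globin gene HBZ in 48 and 41. HBE1 had counts in 42 and 31, GATA1 in 38 and 24 and TAL1 in 29 and 13. Other K562 markers were read in few libraries: HBG1 and HBA2 each in 17 and 3, HBA1 in 16 and 10, TFRC in 15 and 6. LMO2 had counts in 6 and 4 and EPOR in 3 and 1. The summed level of the 12 K562 markers ran from 13122 to 85705 CPM (the count of a gene as a share of all counts of its library, on the usual per-million scale) in dT and from 0 to 55865 in Bio. HBG2 alone had a mean of 38757 CPM in dT and 26324 in Bio, so the sum mostly follows that gene. The 6 lymphoid, 5 myeloid, 2 megakaryocyte and 2 fibroblast markers in the table each had a summed median of 0 CPM over the in-screen libraries of either screen. The highest library had 666 CPM of lymphoid markers in dT and 1977 in Bio, while CD3E and MS4A1 were at 0 in all of them. Of the K562 markers, HBG2 rose with YM115 in both screens in edgeR, 1 of 8 tested in dT and 1 of 5 in Bio. Over all genes, 2.62% in dT and 2.74% in Bio were called. HBG1, HBG2 and TFRC were lower in Bio than in dT, 3 of 8, near the 36.3% called over all genes. TAL1 passed for the position of a drug in Bio, 1 of 5 beside 21.1%. For the difference between screens in the imatinib term, HBA2 and HBG1 passed, 2 of 9 beside 5.84%. The part of these markers in the results for the members was not tested.

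The 9 genes fell into a part that was read in nearly every library and a part that was read in few. UROD, BLVRB and GYPC had counts in all 48 in-screen dT libraries, GATA1 in 38 and NFE2 in 29. CPOX had counts in 13, ALAD in 10, KLF1 in 8 and FECH in 4. In Bio the order was alike but every share was lower: 42 of 48 libraries for BLVRB, 37 each for UROD and GYPC, 24 for GATA1, 8 for NFE2, 7 for CPOX, 2 each for ALAD and FECH, and 1 for KLF1. Thinning each library to 100000 counts, which left out 7 shallower Bio libraries, gave expected shares of 74.8% in dT and 49.0% in Bio for GATA1, and of 48.7% and 18.0% for NFE2. The lower shares of the Bio screen for these 2 genes were therefore also present at equal depth.

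**Figure D1:**
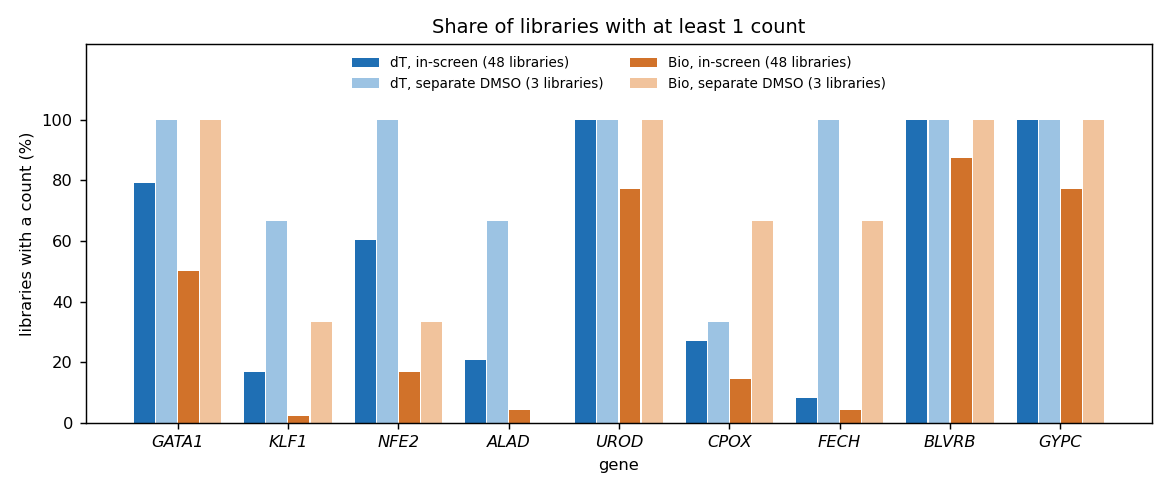
Share of libraries, in percent, with at least 1 count of each gene, for the 48 in-screen libraries and the 3 separate DMSO libraries of each screen. UROD, BLVRB and GYPC reach 100% in dT, whereas FECH reaches 8.33% in-screen and 100% in the separate dT libraries.

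By mean CPM over the in-screen dT libraries, BLVRB ranked 46 of the 19688 genes with a count, UROD 102, GYPC 123 and GATA1 582. NFE2 ranked 2012, CPOX 3095, KLF1 3766, ALAD 7840 and FECH 12872. Between genes, levels were set side by side per kilobase of exon, although libraries that read the 3′ end depend little on gene length. On that scale the dT mean was 1464 CPM per kilobase for BLVRB, 371 for UROD, 221 for GYPC and 145 for GATA1. It was 23.7 for NFE2, 16.3 for KLF1, 10.8 for CPOX, 1.25 for ALAD and 0.112 for FECH. Among the heme enzymes UROD thus stood far above ALAD, CPOX and FECH on this scale.

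**Figure D2:**
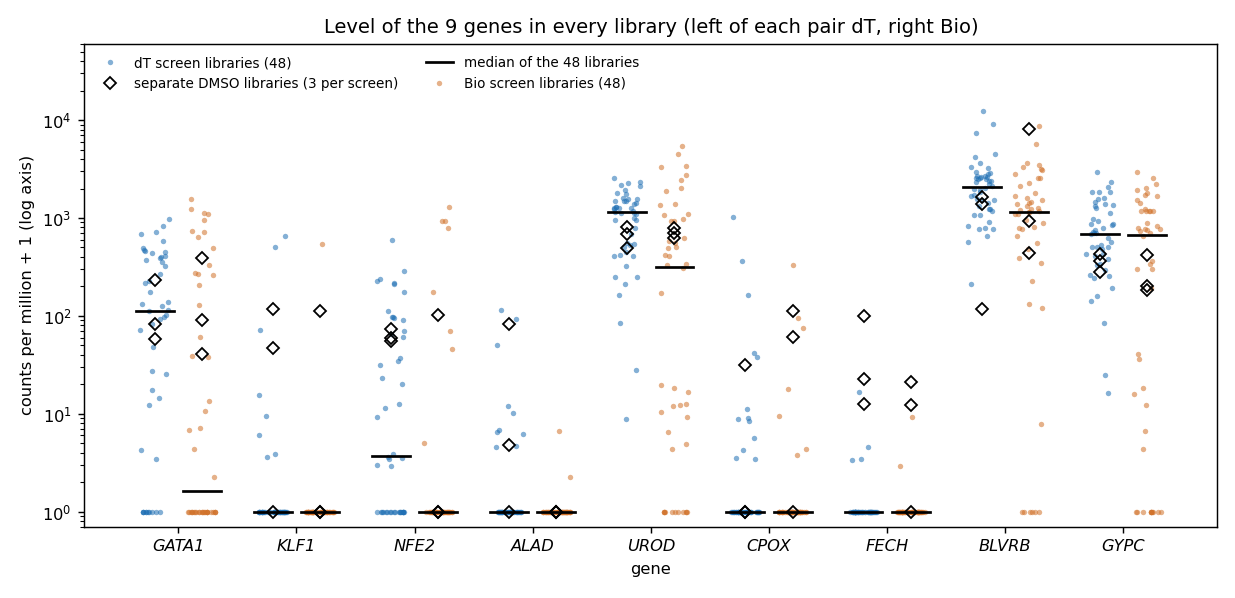
CPM plus 1, on a log axis, of each gene in every library. Points are in-screen libraries, black lines their medians, and open diamonds the separate DMSO libraries. The medians of KLF1, ALAD, CPOX and FECH lie at no count in both screens, while the median of BLVRB is 2085 CPM in dT and 1159 CPM in Bio.

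GATA1, the factor that drives erythroid differentiation, ranged from 0 to 982 CPM in dT with a median of 112, and from 0 to 1578 CPM in Bio with a median of 0.641. In dT DMSO_DMSO its 3 libraries had 16.6, 396 and 70.6 CPM. In Imatinib_Trametinib, the condition of highest mean, they had 471, 369 and 837, and in Trametinib_Trametinib, that of lowest mean, 0, 0 and 113. DMSO_DMSO thus overlapped both of these extremes. All 3 runs had a count in 8 of 16 dT conditions, and within these the highest run exceeded the lowest by a median of 8.53-fold. In Bio all 3 runs had a count in 2 of 16 conditions, and 4 conditions, DMSO_DMSO among them, had none in any run.

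NFE2 ranged from 0 to 594 CPM in dT with a median of 2.73, and from 0 to 1305 in Bio with a median of 0. Its highest dT library was Imatinib_Imatinib of run 1 with 219 counts, while runs 2 and 3 of that condition had 0 and 24. In Bio, 5 libraries held 98.5% of its 1068 counts. In dT the pooled SD of single NFE2 libraries within a condition was 111 CPM. The SD of the 16 condition means, each over 3 libraries, was 60.7 CPM. Means vary less than single libraries, so these values do not rank runs against conditions.

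KLF1 was counted in 8 dT libraries, and 2 of these had 50 or more counts. These were DMSO_YM115 of run 3 with 96 and DMSO_DMSO of run 2 with 87, whereas runs 1 and 3 of DMSO_DMSO had 0 and 1. The whole Bio screen held 161 counts of KLF1, all in run 2 of DMSO_Imatinib. A single library thus carried the gene in Bio and 43.4% of its counts in dT.

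The heme enzymes other than UROD had the same form. CPOX had 527 counts in dT, 55.2% of them (291) in YM115_YM115 of run 3, and runs 1 and 2 of that condition had 0. In Bio 78.3% of its counts (256 of 327) were in Trametinib_Imatinib of run 2. ALAD had 84 counts in dT, of which 40 were in Imatinib_Trametinib of run 2, and 3 in all of Bio. FECH never exceeded 2 counts in an in-screen library and had 5 counts in dT and 3 in Bio altogether. For these genes a count was a rare event in a library, and no condition of either screen had a count in all 3 runs.

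UROD was the heme enzyme that could be followed across the screens. It ranged from 7.87 to 2546 CPM in dT with a median of 1142, and from 0 to 5419 in Bio with a median of 317. The highest dT condition mean was that of Imatinib_Imatinib, whose 3 libraries had 2263, 2126 and 946 CPM. The lowest was that of DMSO_DMSO, with 83.2, 419 and 1402 CPM. These groups overlapped. The pooled SD of single libraries within a condition was 669 CPM, and the SD of the 16 condition means, each over 3 libraries, was 380 CPM. As for NFE2, these values do not rank runs against conditions. In Bio, 11 libraries had no count of UROD and a further 9 had 1 to 3.

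GYPC ranged from 15.1 to 2936 CPM in dT with a median of 691, and from 0 to 2959 in Bio with a median of 675. Its lowest dT condition was also DMSO_DMSO, with 499, 338 and 15.1 CPM, and its highest Imatinib_Imatinib, with 1366, 1590 and 1267 CPM. These groups did not overlap, but they were picked as the extremes of 16 conditions. The highest run of a dT condition exceeded the lowest by a median of 3.74-fold for GYPC and 3.67-fold for UROD. Counting error alone would give a spread of 6.27% and 5.13% at the median count of 254 and 380, so that the runs differed by far more than counting error.

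BLVRB had the highest mean CPM of the members and was the only one whose 3 highest dT libraries were the 3 runs of 1 condition. In dT Trametinib_DMSO its libraries had 7343, 9090 and 12458 CPM, from 2649, 3157 and 5339 counts. The other 45 in-screen dT libraries ranged from 209 to 4534 CPM. All 3 runs therefore lay above every other library, and the condition mean of 9631 ± 2600 CPM (SD, n = 3) was 4.83 times the mean of the rest, 1995 ± 983 CPM (n = 45). These 3 libraries held 27.0% of all in-screen dT counts of BLVRB.

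The other conditions with trametinib did not show this level. DMSO_Trametinib, the same pair in the other order, had 1520, 1181 and 3278 CPM, and Trametinib_Trametinib had 2675, 2712 and 3666. The 18 other dT libraries with trametinib had a mean of 1905 ± 943 CPM, close to 2055 ± 1023 CPM in the 27 libraries without it. In Bio, Trametinib_DMSO had 2839, 2585 and 8627 CPM and was again the highest condition mean, 4684 ± 3418 CPM, but it overlapped the other 45 libraries, which reached 5639 CPM. Its runs ranked 8, 9 and 1 of the 48 Bio libraries. For 0.96% of the 2187 genes counted in 50% or more of the dT libraries, the 3 highest of 48 libraries were the 3 runs of 1 condition, and BLVRB was among these 21 genes, of which Trametinib_DMSO topped 5. In Bio the share was 1.93% of 829 genes, and no member was among the 16. The condition was singled out after its values were seen.

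**Figure D3:**
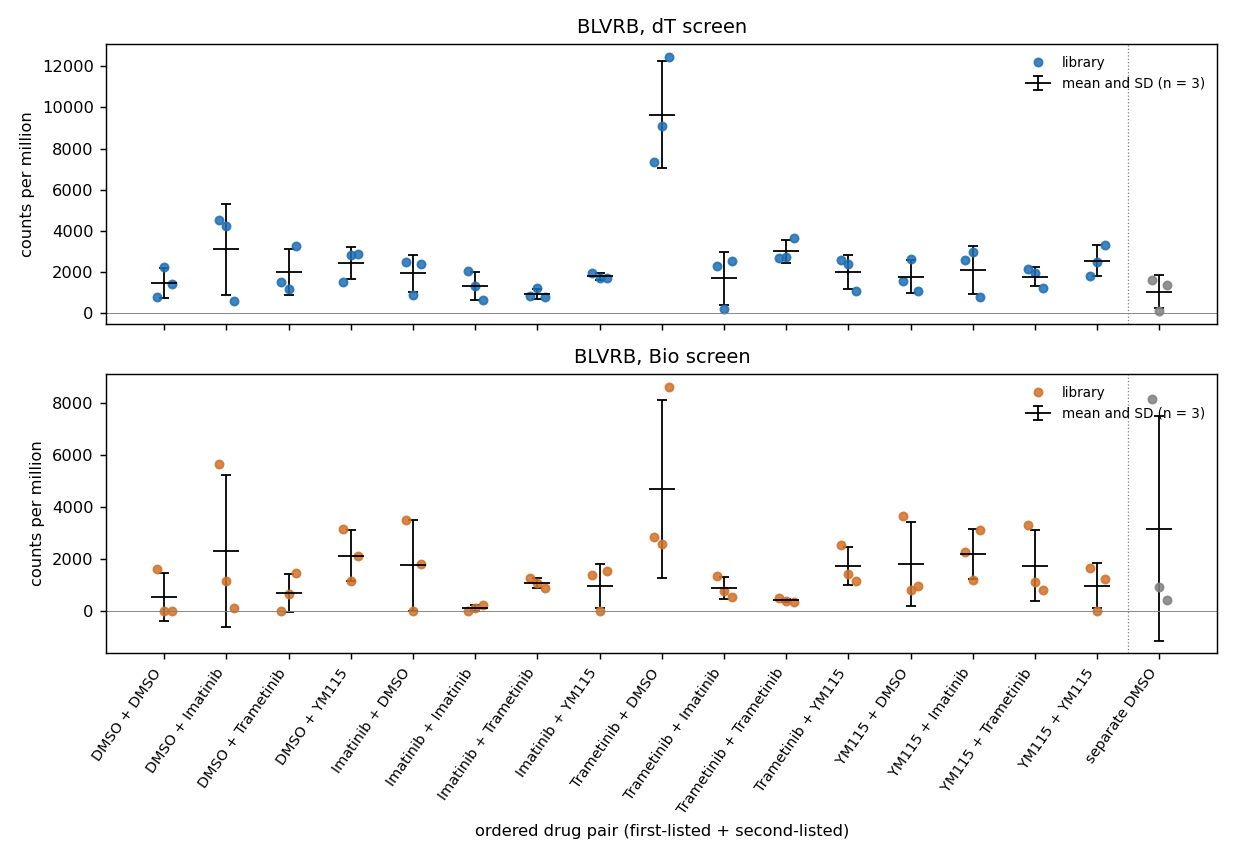
BLVRB in CPM for each ordered pair, 3 libraries each (points), with mean and SD (bars), in the dT screen (top) and the Bio screen (bottom), separate DMSO at the right. Trametinib + DMSO holds the 3 highest dT libraries, and a run of the same pair is the highest Bio library, at 8627 CPM.

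Summed over the 9 genes, dT libraries held 254 to 6316 counts with a median of 1618, and Bio libraries 0 to 3403 with a median of 678.5. The summed level was 4738 ± 2329 CPM (SD, n = 48) in dT and 3364 ± 2165 CPM (n = 48) in Bio. UROD, BLVRB and GYPC made up 92.9% of the summed counts in dT and 89.2% in Bio, so the sum follows those 3 genes. It was highest in dT Trametinib_DMSO, with 9577, 9776 and 14738 CPM, of which BLVRB made up most. In Bio it was highest for the same pair, with 5178, 2766 and 9903 CPM, and lowest in Imatinib_Imatinib, where the 3 libraries held 0, 4 and 4 counts of all 9 genes. Those 3 libraries were among the shallowest and did not enter the tests. Every in-screen dT library had counts of 4 to 7 members, and Bio libraries of 0 to 6.

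**Figure D4:**
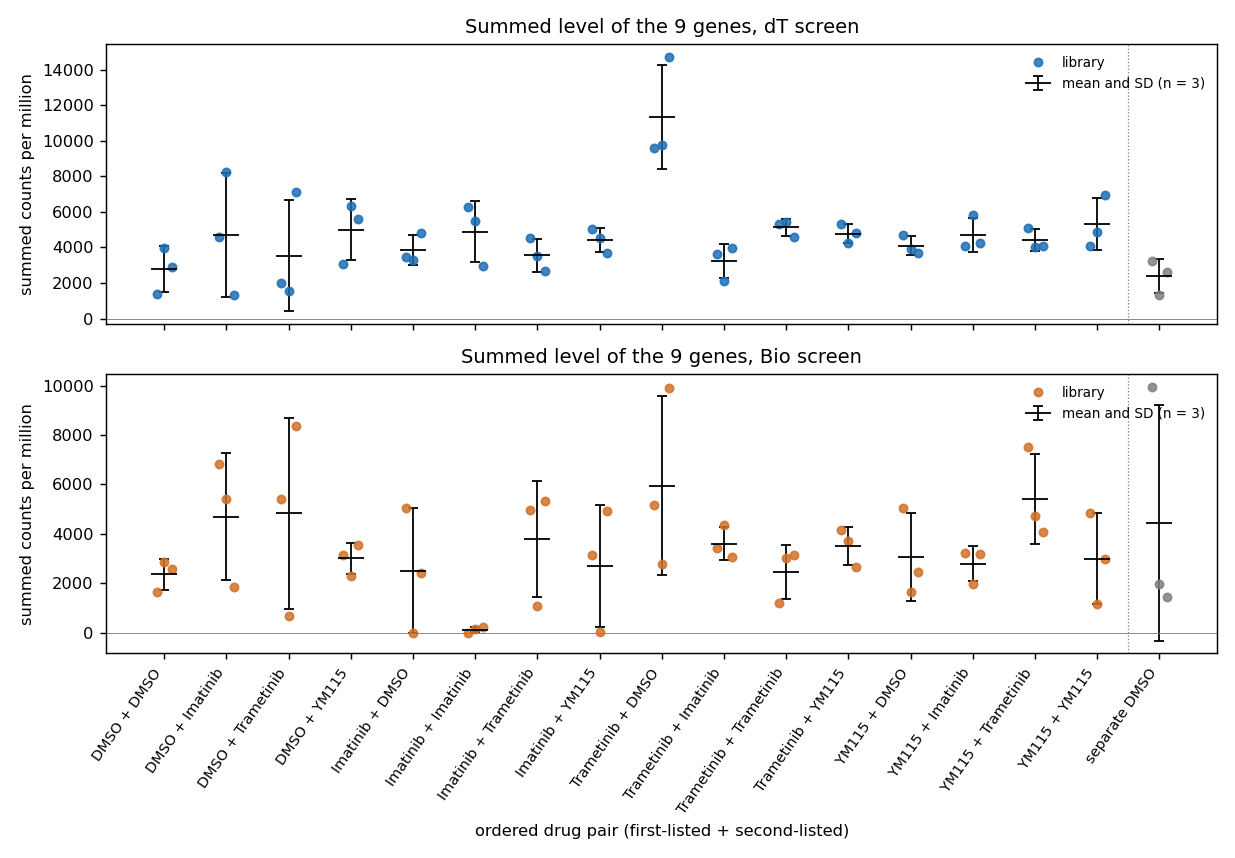
Summed CPM of the 9 genes for each ordered pair, 3 libraries each (points), with mean and SD (bars), in dT (top) and Bio (bottom), separate DMSO at the right. The 3 dT Trametinib + DMSO libraries sit between 9577 and 14738, and Bio Imatinib + Imatinib lies near 0.

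The first comparison asked whether each drug, in either position, changed the members. No member passed an adjusted p of 0.05 for any drug in either screen, in edgeR's quasi-likelihood test with run as a block and Benjamini-Hochberg adjustment over all genes tested. The 5 members that passed the filter on low counts were GATA1, NFE2, UROD, BLVRB and GYPC, which gave 30 tests over 3 drugs and 2 screens. None had an unadjusted p under 0.05, and DESeq2 called 0 as well, beside 77 to 149 genes in all for each drug and screen. Over all genes, the share called in dT was 2.88% for imatinib (113 of 3930), 1.37% for trametinib and 2.62% for YM115, and in Bio 2.34% (41 of 1754), 1.94% and 2.74%. A count of 0 of 5 members lies near these shares.

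The estimates had wide errors, so that the absence of a call does not show that the members were unaffected. The smallest adjusted p of the 30 was 0.409, for BLVRB and imatinib in dT. BLVRB had 1845 ± 1156 CPM in the 21 libraries with imatinib and 2960 ± 2621 in the 27 without, and the log2 fold change was -0.65 with a standard error of 0.35 (95% interval -1.32 to 0.03). Without the 3 Trametinib_DMSO libraries, which lie in the group without imatinib, it was -0.25 ± 0.28. For YM115 and BLVRB in dT the estimate went from -0.43 ± 0.33 to -0.02 ± 0.27 in the same way, and for trametinib from 0.19 ± 0.37 to -0.10 ± 0.28.

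UROD had 1257 ± 618 CPM in the 21 dT libraries with YM115 and 941 ± 679 in the 27 without, a log2 fold change of 0.58 ± 0.43 (SE) with an adjusted p of 0.595 in edgeR. GYPC had 972 ± 709 CPM with YM115 and 744 ± 610 without, at 0.49 ± 0.46 and an adjusted p of 0.702. GATA1 had 256 ± 285 CPM with and 188 ± 220 without, at 1.26 ± 0.99 and an adjusted p of 0.622. All 3 had their estimates above 0, as had the median of all genes tested at 0.21, and none of the differences exceeded the spread between libraries. In Bio the standard errors ran from 0.71 for BLVRB with YM115 to 3.70 for NFE2 with trametinib, where 4 of 20 libraries with the drug and 4 of 24 without it had any count of NFE2.

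**Figure D5:**
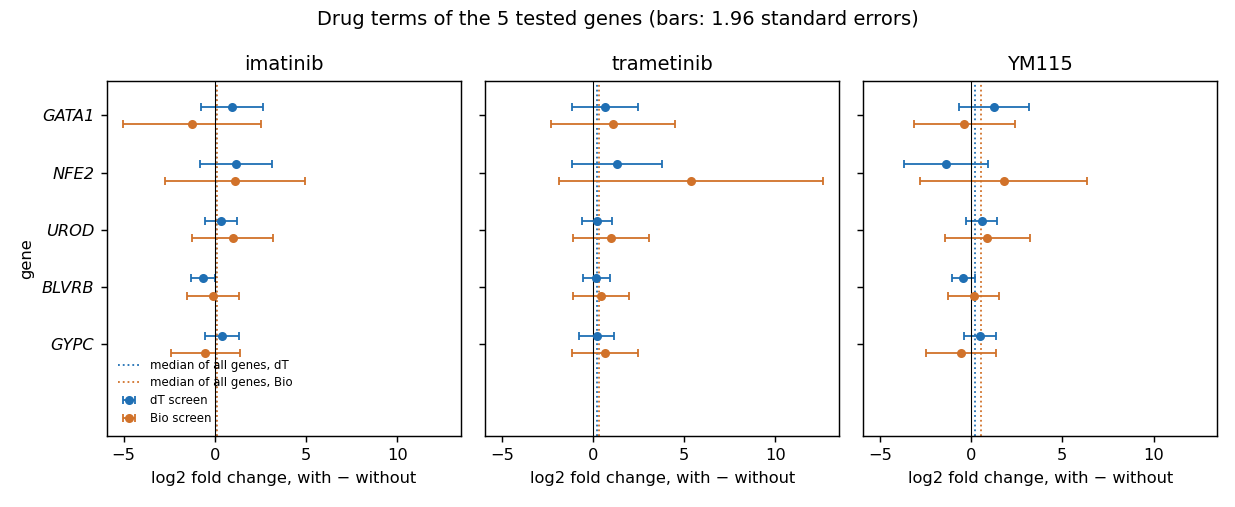
Log2 fold change of the 5 tested genes with each drug against without it, as points with 95% intervals, for the dT and the Bio screen. Dotted lines mark the median of all genes tested. Each interval spans 0.

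The difference between the screens in these drug terms was tested directly in 1 fit of both. No member passed, of 6 tested for each drug, and DESeq2 called 0, beside 503 to 654 genes in all. The smallest p was that of CPOX for trametinib, with a log2 difference of 2.39 ± 1.10 (SE) and an adjusted p of 0.213 in edgeR. Of all 4705 genes, 5.84% passed for imatinib, 4.53% for trametinib and 6.59% for YM115. Without run 1 CPOX passed, at 6.88 ± 1.83 and an adjusted p of 0.0329. Without run 3 the value was -0.27 ± 2.09, and without run 2 CPOX was not tested.

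The layout repeats each drug as first-listed and as second-listed, which addresses whether the injection position of a drug changes the readout. No member passed this joint test in edgeR, 0 of 5 in each screen, against 10.7% of 3930 genes in dT and 21.1% of 2112 in Bio. DESeq2 called no member, and 27 and 21 of the same genes. At an unadjusted p under 0.05 in edgeR there was 1 member in each screen, beside 1039 of 3930 genes in dT and 776 of 2112 in Bio, so that 1 of 5 did not exceed the rest of the table. In dT this was BLVRB, with 4088 CPM on average in the 12 libraries that list trametinib first and 1932 in the 12 that list it second, and an adjusted p of 0.0776. Without the 3 Trametinib_DMSO libraries the adjusted p of BLVRB was 0.757. In Bio it was NFE2, with an adjusted p of 0.0588, which was 0.0283 without the Trametinib_DMSO libraries and 0.0338 with all 48 libraries kept. The mean of NFE2 in Bio was 201 CPM with trametinib first and 155 with it second, 143 and 5.76 with imatinib, and 5.76 and 69.6 with YM115. Each of these 6 means came from 1 to 3 of 12 libraries with a count. Both values of 5.76 rest on the same YM115_Imatinib library, with 9 counts. The NFE2 means took in all 48 Bio libraries, the test only those that passed the quality limits. For BLVRB and NFE2 alike, the 3 libraries that list a drug at both positions entered both of its means.

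The separate DMSO libraries were set against in-screen DMSO_DMSO. They held counts of more members: 6, 8 and 9 in dT and 6 in each of the 3 Bio libraries, against 5 to 7 and 1 to 3 in DMSO_DMSO. No member passed the edgeR test, 0 of 8 in dT and 0 of 6 in Bio. The share over all genes was 0.116% in dT and 0.0432% in Bio. At an unadjusted p under 0.05 in edgeR there were 0 members in dT, beside 1117 of 6917 genes, and 2 in Bio, GATA1 and CPOX, beside 1125 of 4631. DESeq2 called more genes than edgeR, 235 of 6917 in dT and 280 of 4631 in Bio, and among these were 0 members in dT and 1 in Bio, which was GATA1.

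FECH, which inserts iron into protoporphyrin, was nearly unread in the screens but read in each separate dT library. The separate dT libraries had 26, 3 and 10 counts of FECH and the DMSO_DMSO libraries 0, 0 and 0. The summed level of the separate libraries was 7.36 times a floor of 3 counts over the DMSO_DMSO group. That floor takes reads as independent. Counts of the sparse genes gathered in few libraries, so the floor sets no lower limit on the difference. No more than 5 counts were found in all 48 in-screen dT libraries. FECH did not pass the filter on low counts and was not tested. In dT the separate libraries lay above DMSO_DMSO without overlap for FECH and for NFE2, which had 72.9, 58.4 and 54.5 CPM against 33.3, 11.5 and 0. Such a lack of overlap was common, at 13.7% of 15123 genes in dT, and 1.02% lay below.

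In Bio, GATA1 had 14, 8 and 2 counts in the separate libraries and 0 in each DMSO_DMSO library. The summed level was 15.7 times the same floor, which again sets no lower limit. NFE2, CPOX and KLF1, also at 0 in Bio DMSO_DMSO, had 9, 7 and 4 counts over the separate libraries, or 5.90, 4.59 and 2.62 times the floor. All 9 counts of NFE2 were in the library of run 2 and all 4 of KLF1 in that of run 1, and without that library the gene was at 0 on both sides. The 7 counts of CPOX came from runs 1 and 3. GATA1 was the member without overlap there, against 16.8% of 11575 genes above and 0.708% below. The median log2 difference over all genes tested was 3.39 in dT and 5.63 in Bio. This median depended on the filter on low counts. Among genes counted in at least 50% of libraries it was 0.69 in dT (2247 genes) and 0.45 in Bio (846 genes). In dT, UROD at 0.74 ± 1.08 (SE) and BLVRB at -0.02 ± 0.72 stood below the median of all genes tested. Given the part of the filter, this does not set them apart from a general rise. The 3 separate dT libraries had 683, 495 and 811 CPM of UROD, within the range of the in-screen libraries. They had 1630, 117 and 1375 CPM of BLVRB, of which the second lay below the lowest in-screen library at 209. The separate libraries had more genes detected and counts of more members than DMSO_DMSO. Among those of dT, the libraries at 10.2%, 31.0% and 36.9% mitochondrial had counts of 9, 8 and 6 members. In Bio, those at 5.10%, 25.0% and 28.1% had 6 each. The part of gene number and mitochondrial share in the result was not tested. Leaving out the separate libraries over 15% mitochondrial left 1 of 3, whose spread was taken from the other groups, and 6 of 11377 genes in dT and 0 of 8475 in Bio then passed, so that this fit says little about the members.

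Between the screens, CPOX and BLVRB were the members that passed, both lower in Bio in edgeR, of 6 tested. CPOX differed by -1.90 ± 0.56 (SE) on the log2 scale with an adjusted p of 0.00498, and BLVRB by -0.82 ± 0.32 with an adjusted p of 0.0376. Of all 3874 genes, 36.3% passed and 1359 of those 1407 were lower in Bio, with a median of -1.12 over all genes tested. Relative to that median BLVRB stood 0.30 higher in Bio and CPOX 0.77 lower, so that 2 of 6 members lay near the background share and the direction of BLVRB depends on what it is set against.

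Neither call was stable. CPOX had 13 dT and 7 Bio libraries with a count. Without run 1 it was -1.03 with an adjusted p of 0.716, and without run 2, without run 3, or without the single dT YM115_YM115 library of run 3 it no longer passed the filter on low counts. BLVRB passed without run 1 at -1.31, and did not pass without run 2 at -0.37 or without run 3 at -0.94. With DESeq2 size factors in edgeR it was -0.13 with an adjusted p of 0.815, and with no block for run it was -0.65 with an adjusted p of 0.236. DESeq2 called no member. UROD at -0.94 ± 0.49, GYPC at -0.28 ± 0.46, GATA1 at -0.33 ± 0.73 and NFE2 at 0.11 ± 1.09 did not pass. With the total count as a covariate CPOX passed at -1.44 with an adjusted p of 0.0285, and BLVRB did not at -0.67 with an adjusted p of 0.176. Screen and barcode layout cannot be told apart in this comparison.

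Heme synthesis and transport was a list of 16 genes, all in the table, of which UROD, SLC25A37 and SLC25A39 were counted in at least 50% of in-screen dT libraries. SLC25A37, the mitochondrial iron importer mitoferrin, had counts in 48 dT and 39 Bio libraries and a mean of 229 ± 265 CPM (SD, n = 48) in dT. SLC25A39 followed in 33 and 14. ALAS2, the erythroid first enzyme, was counted in 20 and 12 libraries, UROS in 15 and 9 and PPOX in 14 and 2. Of 10 list genes tested in dT, 0 rose and 0 fell with imatinib, and 1 fell with YM115 (PPOX). Of 4 tested in Bio, 1 fell with YM115 (ALAS2) and none passed for the other drugs.

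The calls for YM115 came from few libraries. PPOX was counted in 4 of 21 dT libraries with YM115 and in 10 of 27 without, a log2 fold change of -5.68 ± 1.61 (SE) with an adjusted p of 0.0413 in edgeR. ALAS2 was counted in 4 of 21 Bio libraries with YM115 and in 8 of 23 without, at -6.06 ± 1.69 and an adjusted p of 0.0340. PPOX did not pass without run 2 or run 3 and ALAS2 without run 1 or run 3, and each was not tested without the remaining run. The median of the list was -0.10 for YM115 in dT, beside 0.21 over all genes. For position, TMEM14C, a porphyrin transporter of the mitochondrion, passed in dT, 1 of 10 beside 10.7% of all genes. Between screens TMEM14C, SLC25A37 and CPOX were lower in Bio, 3 of 10, near the 36.3% called over all genes. SLC25A37 did not pass in edgeR with DESeq2 size factors (adjusted p 0.351) or without the block for run (0.147), nor in DESeq2 (0.237). TMEM14C passed in edgeR without any single run, but not without the block for run (0.117), nor in DESeq2 (0.116).

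Of the list for heme breakdown and export, 6 genes in the table, BLVRB was the 1 that was tested for the drugs. HMOX1, the inducible heme oxygenase, had a count in 0 dT libraries and 1 Bio library, and HMOX2 in 11 and 6. BLVRA, the other biliverdin reductase gene, had no in-screen count in either screen but was counted in 2 of 3 separate dT libraries.

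Among 20 erythroid transcription factors, those counted in at least 50% of in-screen dT libraries were GATA1, E2F4 (38 libraries), GATA2 (35), NFE2, TAL1 (29), RUNX1 (28), LYL1 (27) and NFE2L1 (27). GATA2, which precedes GATA1 in the lineage, had 180 ± 311 CPM (SD, n = 48) in dT, against 217 ± 250 for GATA1. Of 11 tested in dT and 7 in Bio, 0 passed for any drug in edgeR. For position, GATA2, KLF3, NFE2L1 and TAL1 passed in Bio, 4 of 9 beside 21.1% of all genes, and 0 of 11 passed in dT beside 10.7%. The difference between the screens was not tested. DESeq2 gave none of the 4 an adjusted p, and GATA2 lost its call without any single run, with adjusted p-values of 0.0823, 0.145 and 0.125 in edgeR. TAL1 did not pass without run 1 or 2, NFE2L1 without run 1 or 2, and KLF3 without run 2. Between screens GFI1B, LYL1 and TCF3 were lower in Bio, 3 of 11 beside 36.3%. Without the block for run, LYL1 and TCF3 did not pass (adjusted p 0.279 and 0.0709 in edgeR).

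Of 20 red cell membrane genes 19 were in the table, and GYPC, GYPE (36 libraries), EPB41 (29) and ANK1 (24) were counted in at least 50% of in-screen dT libraries. GYPE and GYPB are near-identical relatives, and how reads were shared among such genes is uncertain. The anion exchanger gene SLC4A1 was counted in 1 dT and 2 Bio libraries. Of 9 tested in dT and 3 in Bio, 0 passed for any drug. STOM passed for position in dT, 1 of 9 beside 10.7%, and ANK1 in Bio, 1 of 4 beside 21.1%. Between screens 5 of 9 were lower in Bio, EPB41, GYPE, KEL and STOM among them, beside 36.3% of all genes called. The list median was -2.39, beside -1.12 over all genes. Without the block for run, EPB41, GYPE and KEL did not pass (adjusted p 0.0878, 0.0753 and 0.0502 in edgeR). STOM did not pass with all libraries kept (adjusted p 0.647 in edgeR). None of the 4 lists had a call for the separate DMSO libraries in either screen.

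The members did not follow each other closely across libraries. Over the 48 in-screen dT libraries the largest Spearman correlation of CPM among the 10 pairs of GATA1, NFE2, UROD, BLVRB and GYPC was 0.32, for UROD and GYPC, and it was 0.19 in Bio. GATA1 and NFE2 gave -0.25 in dT and 0.08 in Bio. GATA1 and UROD gave -0.10 and 0.03. These are descriptions over libraries that share depth and run, and such weak values in sparse counts carry no finding.

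The genes most like each member were sought among 2186 others counted in 50% or more of the dT libraries, by Spearman correlation over the 48. For GATA1 the top 3 were OST4 (0.46), MFGE8 (0.45) and FUOM (0.44), with 0.003, 0.01 and 0.31 for the same pairs in Bio. For NFE2 they were DDOST (0.57), ATP5F1C (0.52) and SNAP29 (0.48), with -0.10, 0.11 and -0.08 in Bio. For UROD they were BAP1 (0.54), ARMC6 (0.49) and MIF4GD (0.45), with values between -0.19 and -0.004 in Bio.

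For BLVRB the top 3 were ZNF771 (0.52), ATP6AP1 (0.52) and RAB1B (0.46), with 0.14, 0.13 and 0.38 in Bio. For GYPC they were RPL31P35, MTMR1 and FAF1 (0.49 each), with 0.20, 0.05 and 0.23. No other member or list gene was among the 15. The Bio values were lower than the dT values for each of the 15 pairs, and the pairs had been picked as the highest in dT.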

How the data were processed

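Pooled transcriptomes of single K562 cells were measured in 102 libraries. The values deposited by the authors were unnormalized counts of reads for each gene. According to the submitters' processing notes, STAR 2.4.2a and GRCh38 were used, and the libraries read the 3′ end. Annotation, strand setting and any removal of duplicate reads were not given in the sources used here. The barcode fragments that the study lists name no molecular identifier. Floors and counting errors take reads as independent and do not cover duplicate reads. The intervals come from the standard errors of the edgeR tests, which rest on the spread between libraries. Symbols were matched for 24539 of 24965 genes. There were 0 rows without a gene name and 0 columns from outside the series.

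Depth was the sum of counts of a library and CPM used that sum. Tests used edgeR 4.0.16 in R 4.3.3 on the counts (TMM, filterByExpr on the design, glmQLFit, glmQLFTest, Benjamini-Hochberg over all genes tested, threshold 0.05). Standard errors are those implied by the F statistic. Drugs were 3 terms (present in either position) and position was a joint test of first-listed minus second-listed. Run was a block, because the study removes the replicate batch. Residuals of libraries of the same run correlated with a mean r of 0.0254 in dT and 0.0327 in Bio, against -0.0127 and -0.0163 between runs. Of 102 replicate pairs 0 were identical, and chi-square divided by its degrees of freedom was 3.33 or higher. Alternatives were DESeq2 1.42.0, its size factors, other filters, no block, depth as a covariate, and leaving out runs. The fit was tested on simulated data with known changes. Descriptions used python 3.11.15, numpy 2.4.6, pandas 2.3.3, scipy 1.17.1 and matplotlib 3.10.9.

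The members, lists and tests were chosen with earlier results of these data known. All members were named. Genes of the 4 lists were named when they passed an adjusted p of 0.05 in a comparison or had a count in at least 50% of the in-screen libraries of a screen, and UROS, HMOX1, HMOX2, BLVRA, SLC4A1 and GYPB were named for their roles after their values were seen. LMO2 and EPOR were named as K562 markers. Likeness was the Spearman correlation with the 3 highest genes in dT. Results of some list genes are not reported here. A sample sheet that repeats the labels was not used here.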

Additional observations from a re-analysis of the deposited data

Results flagged for a closer look

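The drug response of 6 genes on the erythroid lists differed between the screens in the test of the drug-by-screen term (edgeR, adjusted p between 0.0113 and 0.0398), while no member passed. Of the genes tested on the lists, 12 of heme synthesis and transport, 1 of heme breakdown, 11 transcription factors and 9 membrane genes, 2 passed for each drug, beside 5.84% (imatinib), 4.53% (trametinib) and 6.59% (YM115) of all 4705 genes. Differences are log2, Bio minus dT. For imatinib, GATA2 differed by 6.62 ± 1.90 (SE). It was counted in 16 of 21 dT libraries with the drug and 19 of 27 without, and in 7 of 18 and 8 of 26 in Bio. ABCB10, a mitochondrial transporter, differed by -6.26 ± 1.76, with a count in 1 of 18 Bio libraries with imatinib and 5 of 26 without. For trametinib, PPOX differed by 7.58 ± 1.89 and KEL, a blood group antigen gene, by 6.10 ± 1.68. PPOX was counted in 2 of 20 Bio libraries with trametinib and 0 of 24 without, and KEL in 4 of 20 and 1 of 24. For YM115, ALAS2 differed by -7.95 ± 2.20 and EPB41, a membrane skeleton gene, by 6.13 ± 1.94. EPB41 was counted in 3 of 21 Bio libraries with YM115 and in 2 of 23 without. Each of the 6 lost its call when 1 run was left out: ABCB10 without run 1 or 2, GATA2 without run 2 or 3, KEL without any of the 3, PPOX without run 3 (it was not tested without run 1), ALAS2 without run 1 or 3, and EPB41 without run 1 or 2.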

How the results depend on the processing

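The number of members past the threshold was within 1.5 times of the reported one in 136 of 151 refits. It was 1 instead of 0 for injection position in dT with the total count as a covariate (ALAD), for injection position in Bio with all libraries kept or without the Trametinib_DMSO libraries (NFE2), for the separate DMSO libraries in Bio with DESeq2 (GATA1), and for trametinib by screen without run 1 (range without single runs 0 to 1). Between screens it was 2, and became 1 with DESeq2 size factors, with all libraries kept, with the total count as a covariate and without the dT YM115_YM115 library of run 3. It became 0 with DESeq2, with genes counted in at least 50% of libraries and without the replicate block, and ranged from 0 to 1 without single runs. The fit without the replicate block changed no other count of members. With no filter on low counts it was 3, within 1.5 times of 2, and the genes were KLF1, ALAD and CPOX. Fits without the Trametinib_DMSO libraries, the dT YM115_YM115 library or the separate libraries over 15% mitochondrial were added after seeing the data.

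Estimates of members without a call had the opposite sign in 84 of 680 refits, and 0 of those 84 passed. With single-drug conditions only, PPOX for YM115 in dT was 4.93 and ALAS2 for YM115 in Bio 0.59, each against a negative value in all conditions and without a call. The mean summed level moved by less than 1 SD of single libraries in 10 of 10 alternatives. A mean over most of the same libraries can hardly move that far, so this says little about its stability. Counts of all genes called differed by over 1.5 times in 107 of 151 refits, for the screen from 129 to 3290 beside 1407. The cause was not tested. FECH, ALAD and KLF1 had 5, 84 and 221 counts in all 48 dT libraries together and did not pass the filter for the drug tests. Thinned to 100000 counts, FECH was expected in 3.73% of in-screen and 89.6% of separate dT libraries.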
